A study of Mus musculus with 4 samples.

Results

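Genes known from contraction, blood vessel walls and the brain coverings were examined in cultured neural stem cells: Acta2, Actg2, Tagln, Cnn1, Myl9, Tpm1, Tpm2, Pdgfrb, Foxc1 and Ccn2. They were chosen by name, 10 genes of 55414 in the files, after Acta2, Tagln and Foxc1 had been seen to read lower in Mettl4 knockout than in wild type libraries. That contrast is therefore given as a description and not as a test. RNA sequencing gave 4 libraries, 2 from Mettl4 knockout cells and 2 from wild type cells. Mettl4 codes for an adenosine methyltransferase. Both groups were primary mouse cells from the cortex at embryonic day 14.5, passed through 2 rounds of floating spheres and then grown attached in medium with EGF and basic FGF. The labels do not give the strain, which piece of Mettl4 was deleted or whether replicates came from separate embryos, so any p-value reflects how these libraries vary, and that variation may be technical.

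Smooth muscle cells contract by sliding actin filaments over myosin, with tropomyosin and calponin bound along the filament. The genes for these proteins are driven by serum response factor, which binds a short DNA element called the CArG box, and by its partners myocardin and the MRTF proteins. In the brain they are known from vascular smooth muscle and some pericytes, together called mural cells, while Foxc1 is known from the meninges and from pericytes. Cultured cells of many kinds also make low amounts of several of these transcripts.

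Mettl4 RNA, the check of the labels, read 15.6 and 17.6 CPM (the count scaled to the size of the library) in knockout replicates 1 and 2, against 63.8 and 66.6 CPM in wild type replicates 1 and 2 (log2 fold change -1.97, SE 0.17, edgeR adjusted p = 0.0051). Library totals ran from 18150389 to 19310668 counts in the knockout and from 12812064 to 16883734 in the wild type. All 13 neural stem cell markers on a list passed the low-count filter (enough counts in at least 2 libraries), and their summed level was 6020 and 7060 CPM in knockout libraries against 6110 and 6710 CPM in wild type libraries. Over all 19912 genes tested, 1 gene was called at an adjusted p under 0.05 (edgeR quasi-likelihood test with Benjamini-Hochberg adjustment), and it was Mettl4.

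Of the 10 genes, 8 had at least 1 count in every library and 6 passed the low-count filter: Acta2, Tagln, Myl9, Tpm1, Tpm2 and Foxc1. Cnn1, Ccn2, Actg2 and Pdgfrb lay below it. Tpm2 passed with 51 counts over the 4 libraries, while Ccn2 missed with 43, of which 17 came from wild type replicate 1. The filter works on the level in each library and not on the total count. None of the 6 was called, that is 0 of 6 by edgeR, by DESeq2 and by limma-voom, where 0.00502% of all genes tested were called by edgeR. At an unadjusted p under 0.05 there were 2 of the 6 by edgeR, 1 by DESeq2 and 2 by limma-voom, where 2.77% of all genes tested had such a p by edgeR. In 4 of the 6, Acta2, Tagln, Myl9 and Foxc1, both knockout libraries lay below both wild type libraries, as they did in 14.9% of all genes tested. These counts use the contrast by which the genes were chosen. Among the 4 genes below the filter, Cnn1 alone had both knockout libraries above both wild type libraries, as 12.5% of all genes tested did.

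**Figure D1:**
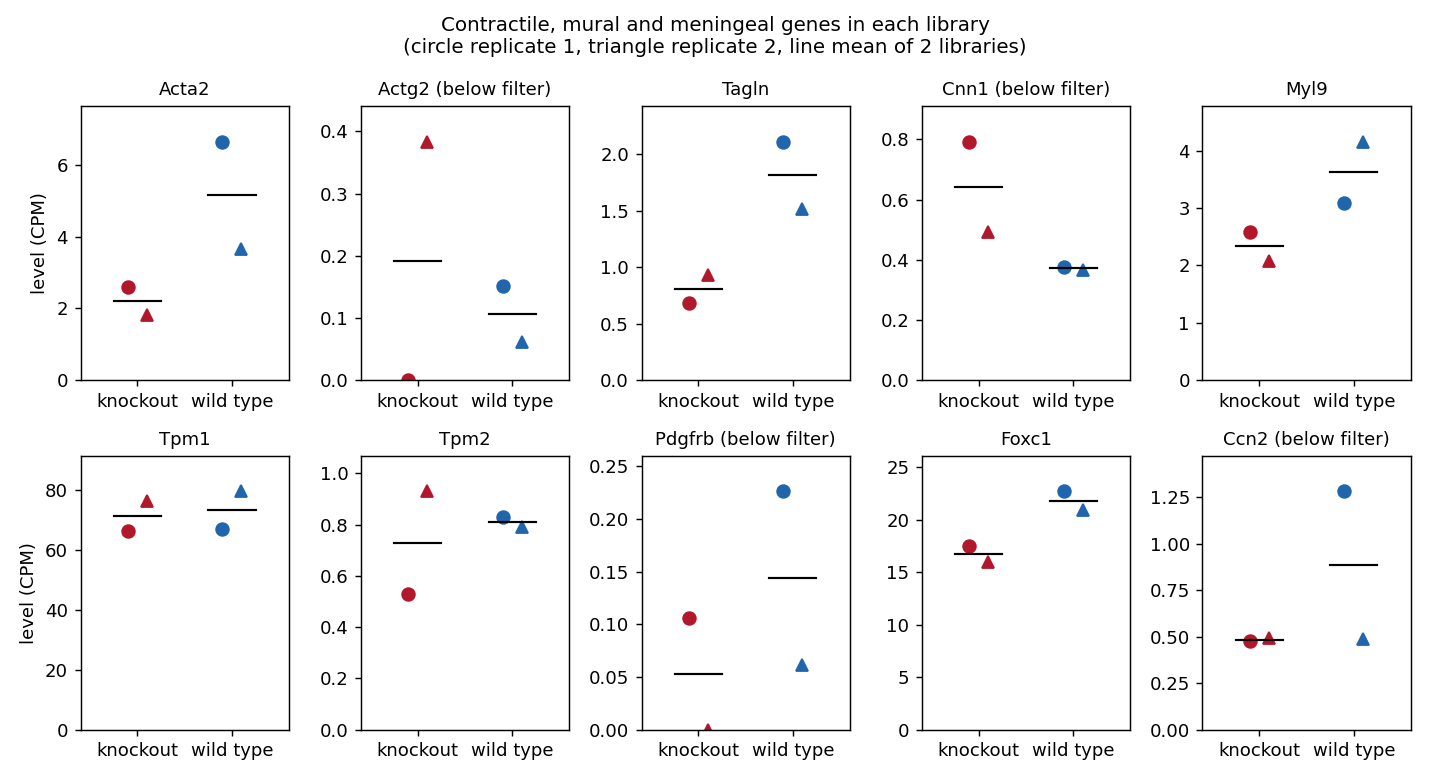
Level of each of the 10 genes in CPM, with knockout libraries at left and wild type libraries at right of each panel, circles for replicate 1, triangles for replicate 2 and a line at the mean of 2 libraries. Acta2, Tagln, Myl9 and Foxc1 show both knockout libraries under both wild type libraries, Cnn1 shows the opposite order, and the other 5 genes overlap.

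Acta2 (ENSMUSG00000035783, chromosome 19) encodes the actin of smooth muscle and is the usual marker of contractile cells. It had 49 and 33 counts in knockout replicates 1 and 2, which is 2.59 and 1.81 CPM, against 88 and 60 counts or 6.64 and 3.66 CPM in wild type replicates 1 and 2. Wild type replicate 1 was the highest library, and wild type replicate 2 lay nearer to knockout replicate 1 than to its own partner. The means were 2.2 ± 0.551 CPM in knockout and 5.15 ± 2.11 CPM in wild type libraries (SD, n = 2 each). The fitted log2 fold change, knockout minus wild type, was -1.21 (SE 0.37), which puts knockout libraries at 43.1% of wild type libraries. Without wild type replicate 1 the log2 fold change was -0.73, and without wild type replicate 2 it was -1.58. In RNA from whole cultures, fewer cells that make a transcript and less of it per cell cannot be told apart. On the GENCODE transcripts, 7 of 2146 windows of 50 bases in Acta2 also occur in another gene, each in Gm16385, and none in the cytoplasmic actins.

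Tagln (ENSMUSG00000032085, chromosome 9) encodes transgelin, an actin-binding protein that appears early when smooth muscle cells form. It had 13 and 17 counts in knockout libraries, 0.686 and 0.93 CPM, against 28 and 25 counts in wild type libraries, 2.11 and 1.52 CPM. The groups did not overlap. The log2 fold change was -1.16 (SE 0.45). Opposite Tagln lies Gm48529, whose exons cover 62.4% of the exon bases of Tagln, and how the counting treated strand is not stated in the sources used here. Gm48529 had 34 and 28 counts in knockout and 36 and 36 counts in wild type libraries, more than Tagln in each library, so without strand the reads of this pair cannot be told apart. Pcsk7, a neighbour that covers 5.43% of Tagln, had 519 and 539 counts in knockout and 390 and 434 counts in wild type libraries.

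Myl9 (ENSMUSG00000067818, chromosome 2) encodes the regulatory myosin light chain of smooth muscle, which kinases phosphorylate to start contraction. It read 2.59 and 2.08 CPM in knockout libraries (49 and 38 counts) against 3.09 and 4.15 CPM in wild type libraries (41 and 68 counts). The groups did not overlap, but the gap between knockout replicate 1 and wild type replicate 1 was smaller than the gap between the wild type libraries. The log2 fold change was -0.64 (SE 0.33), and it was -0.39 without wild type replicate 2 and -0.83 without wild type replicate 1.

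Cnn1 (ENSMUSG00000001349, chromosome 9), which encodes the calponin of differentiated smooth muscle, went against that order. It had 15 and 9 counts in knockout libraries, 0.791 and 0.493 CPM, against 5 and 6 counts in wild type libraries, 0.377 and 0.366 CPM. Both knockout libraries lay above both wild type libraries. The ratio of knockout to wild type in summed, scaled counts was 1.74, with an exact 95% interval for counting error alone from 0.82 to 3.93. Actg2 (ENSMUSG00000059430, chromosome 6), the actin of visceral smooth muscle, had 0 and 7 counts in knockout and 2 and 1 counts in wild type libraries. Its 0 in knockout replicate 1 allows up to 0.165 CPM, and 7 of its 10 counts came from knockout replicate 2, without which the ratio is 0. The ratio was 1.86, with an interval from 0.424 to 11.1, so no difference was detectable at this depth. It was 3.79 without knockout replicate 1 and 3.08 without wild type replicate 1.

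The tropomyosins lie along actin filaments and set which myosins can reach them. Tpm1 (ENSMUSG00000032366, chromosome 9), which both muscle and other cells use through different transcripts, was the most abundant of the 10 genes per length of exon. It read 66.3 and 76.3 CPM in knockout libraries against 66.9 and 79.6 CPM in wild type libraries. The groups overlapped, and each genotype had one library near the lower and one near the upper end. The log2 fold change was -0.04 (SE 0.15), with a 95% interval from -0.38 to 0.3. Gene counts do not separate its muscle transcripts from the others. Tpm2 (ENSMUSG00000028464, chromosome 4), the tropomyosin of muscle and fibroblasts, had 10 and 17 counts in knockout libraries, 0.528 and 0.93 CPM, against 11 and 13 counts in wild type libraries, 0.83 and 0.793 CPM. The knockout libraries lay on either side of the wild type libraries, and the log2 fold change was -0.15 (SE 0.56).

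**Figure D2:**
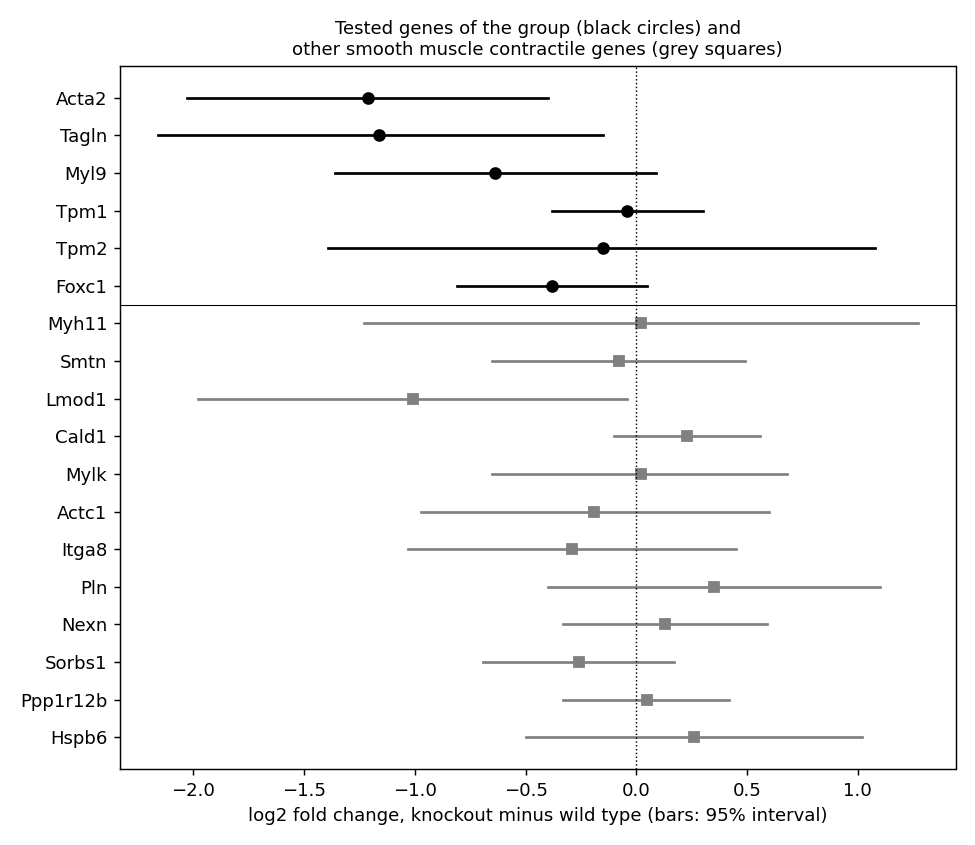
Log2 fold change, knockout minus wild type, with 95% intervals from edgeR, for the 6 tested genes of the group (black) and 12 tested genes of a smooth muscle contractile list (grey). Acta2 at -1.21, Tagln at -1.16 and Lmod1 at -1.01 stand at the left, and Tpm1 lies at -0.04 with Myh11 at 0.02.

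The sequences before the start sites of Acta2, Myl9 and Tpm1 are shown because they carry elements that serum response factor or TEAD proteins are known to bind. They are the 250 bases upstream of the RefSeq start site in build GRCm38.p6, 5′ to 3′ on the strand of the gene. Capitals mark CArG boxes and the TEAD element CATTCC, searched on both strands. A CArG box is called strict here where its core holds adenine and thymine alone, and relaxed where 1 base of the core is another. Acta2 lies at chr19:34255374-34255623 on the minus strand, Myl9 at chr2:156775214-156775463 on the plus strand and Tpm1 at chr9:67049214-67049463 on the minus strand.
Acta2: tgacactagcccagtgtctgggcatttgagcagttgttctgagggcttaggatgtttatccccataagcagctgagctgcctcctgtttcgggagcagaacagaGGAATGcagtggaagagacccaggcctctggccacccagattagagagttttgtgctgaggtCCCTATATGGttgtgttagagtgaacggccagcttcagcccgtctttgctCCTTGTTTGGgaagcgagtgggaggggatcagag
Myl9: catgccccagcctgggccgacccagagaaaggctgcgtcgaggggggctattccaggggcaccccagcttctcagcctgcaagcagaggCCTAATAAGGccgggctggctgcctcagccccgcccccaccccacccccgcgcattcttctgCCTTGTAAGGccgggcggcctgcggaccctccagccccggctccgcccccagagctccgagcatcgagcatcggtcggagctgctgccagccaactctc
Tpm1: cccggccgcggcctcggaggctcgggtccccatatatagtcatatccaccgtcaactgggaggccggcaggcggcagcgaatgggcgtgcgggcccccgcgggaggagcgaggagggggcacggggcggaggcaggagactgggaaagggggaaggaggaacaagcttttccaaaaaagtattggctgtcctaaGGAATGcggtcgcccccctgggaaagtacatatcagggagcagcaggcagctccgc
Acta2 held relaxed CArG boxes that began 84 and 34 bases before the start site, and the TEAD element on the other strand 146 bases before it. Myl9 held a strict CArG box 161 bases before its start and a relaxed one 99 bases before it. Tpm1 held the TEAD element on the other strand 56 bases before its start and no CArG box. Of 32851 RefSeq promoter windows of this length, 1.47% held a strict box, 7.24% a relaxed box, 0.548% at least 2 relaxed boxes, and 12.6% the TEAD element. In the windows of Cnn1, Tpm2 and Foxc1 neither motif was found, and the windows of Tagln, Actg2, Ccn2 and Pdgfrb were not analysed here. A match is a run of letters and not a measured site. Acta2 and Myl9, with CArG boxes, and Foxc1, with none in this window, had both knockout libraries below both wild type libraries. Over all genes tested, 14.9% had that order. Of the other genes without a CArG box here, Tpm1 and Tpm2 overlapped between genotypes, and Cnn1 had both knockout libraries above. Whether the boxes bear on the levels was not tested.

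Pdgfrb (ENSMUSG00000024620, chromosome 18) encodes the receptor for the PDGF that endothelium sends to pericytes and is a standard mural marker. It was at the edge of detection, with 2 and 0 counts in knockout libraries and 3 and 1 counts in wild type libraries. The 0 in knockout replicate 2 allows up to 0.155 CPM. The ratio of knockout to wild type was 0.398, with an interval for counting error from 0.036 to 2.78, so no difference was detectable at this depth. It was 0 without knockout replicate 1, 0.782 without knockout replicate 2, 0.881 without wild type replicate 1 and 0.237 without wild type replicate 2.

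Foxc1 (ENSMUSG00000050295, chromosome 13) encodes a forkhead transcription factor of the meninges and of vessel-associated mesenchyme. It read 17.5 and 16 CPM in knockout libraries (331 and 292 counts) against 22.7 and 20.9 CPM in wild type libraries (301 and 343 counts). The replicates lay close together in each group and the groups did not overlap. The log2 fold change was -0.38 (SE 0.19), and it ranged from -0.45 to -0.32 over the alternatives tried. Its paralog Foxc2, another gene of the meninges, had 0 counts in all 4 libraries. On the annotation, 4 of 5795 windows of 50 bases in Foxc1 also occur in Foxc2.

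Ccn2 (ENSMUSG00000019997, chromosome 10) encodes a secreted matrix protein, known as a target of YAP with TEAD and of TGF-beta signalling. It had 9 and 9 counts in knockout libraries, 0.475 and 0.493 CPM, against 17 and 8 counts in wild type libraries, 1.28 and 0.488 CPM. Wild type replicate 1 stood above the other 3 libraries, which were alike. The ratio was 0.574, with an interval from 0.295 to 1.09, and it was 0.991 without wild type replicate 1 and 0.377 without wild type replicate 2. Exons of the opposite gene Gm15270, with 6 and 4 counts in knockout and 3 and 1 counts in wild type libraries, cover 23.2% of the exon bases of Ccn2.

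Set per length of exon, so that genes can be compared, the 10 genes covered a wide range. Averaged over the 4 libraries, Tpm1 stood first at 11.1 CPM per kb, followed by Foxc1 at 3.3, Myl9 at 2.56 and Acta2 at 1.67 CPM per kb. Tagln came next at 0.661 CPM per kb, then Tpm2 at 0.265, Ccn2 at 0.239, Cnn1 at 0.185, Actg2 at 0.0955 and Pdgfrb at 0.0179 CPM per kb. Only Tpm1 from Foxc1 and Tagln from Tpm2 were separated without overlap of their libraries, and the other neighbours in the order overlapped. Gm48529 covers 62.4% of the exon bases of Tagln and the treatment of strand is not stated, so the place of Tagln is uncertain. The order was the same with the length of the longest transcript. Of the cytoplasmic forms of these proteins, the 4 genes with the highest CPM averaged 1310 CPM per kb (Actb), 550 (Actg1), 154 (Tpm4) and 89.6 CPM per kb (Cnn3). Others on that list lay near Tpm1, with Myh10 at 11.2 and Cnn2 at 8.5 CPM per kb, both named after their values were seen. Actb itself read 3460 and 3410 CPM in knockout and 3560 and 3580 CPM in wild type libraries, a log2 fold change of -0.06 (SE 0.24).

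**Figure D3:**
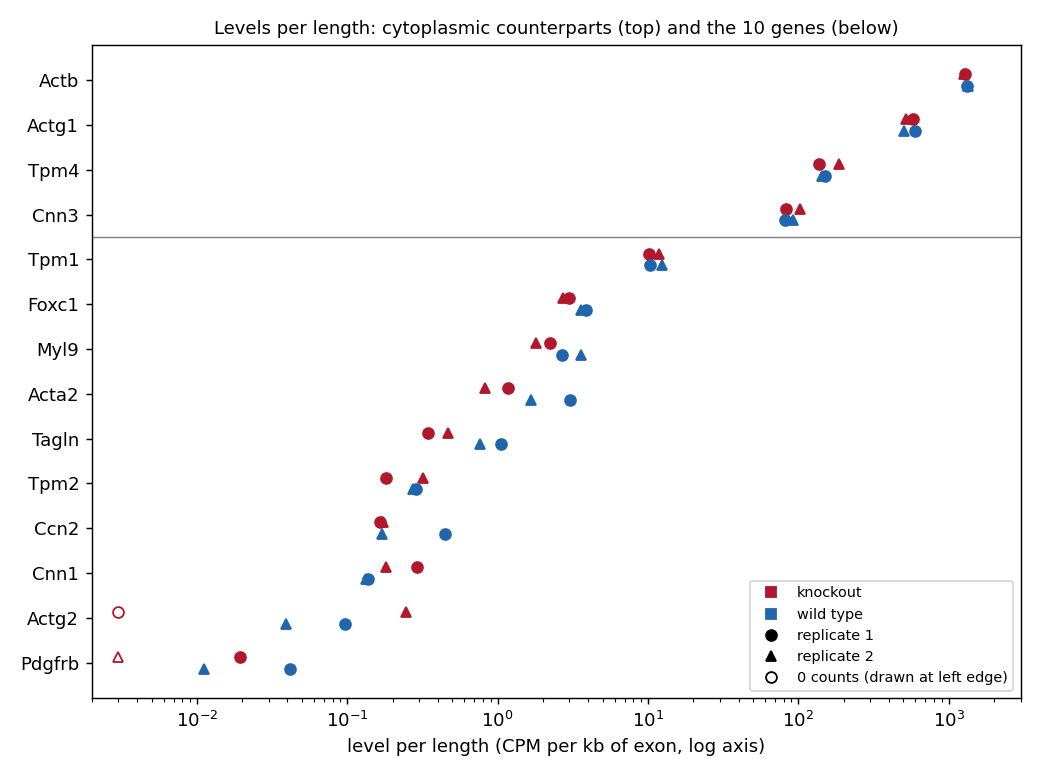
Level per length in CPM per kb of exon on a log axis, for the 4 cytoplasmic counterparts with the highest CPM above the line and the 10 genes below it in order of their mean. Red marks knockout and blue wild type libraries, and open symbols at the left edge stand for 0 counts; Tpm1 lies under every cytoplasmic form drawn and Pdgfrb is at the bottom.

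Replicates of one genotype differed in ways that not all of the genes shared. Between the wild type libraries, the log2 difference of replicate 1 minus replicate 2 was above 0 for most of the 10 genes. It was 1.89 for Pdgfrb, 1.4 for Ccn2, 1.31 for Actg2, 0.86 for Acta2 and 0.47 for Tagln. The Pdgfrb and Actg2 values rest on few counts. It was 0.12 for Foxc1, 0.07 for Tpm2 and 0.04 for Cnn1, but -0.42 for Myl9 and -0.25 for Tpm1. Between the knockout libraries this log2 difference was 0.68 for Cnn1, 0.52 for Acta2, 0.31 for Myl9 and 0.13 for Foxc1. It was -0.82 for Tpm2, -0.44 for Tagln, -0.2 for Tpm1 and -0.05 for Ccn2. Acta2 and Tagln thus had opposite orders in the knockout libraries. Wild type replicate 1 was the highest library for 5 of the 10 genes, Acta2, Tagln, Foxc1, Pdgfrb and Ccn2. Knockout replicates 1 and 2 were the highest for 1 and 2 genes, and wild type replicate 2 for 2. How often each library was the highest over all genes was not examined.

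The genes with the profile nearest to that of Acta2 over the 4 libraries, by Euclidean distance of centred log2 CPM among 17420 genes with at least 1 CPM on average, were Sdr42e1 (0.0777), Tifa (0.212) and Pon3 (0.227). Tifa, for example, read 2.43 and 1.64 CPM in knockout and 5.13 and 3.17 CPM in wild type libraries. Nearest to Foxc1 were Hr (0.0278), Epm2a (0.0414) and Osbpl3 (0.0446). With 4 libraries and this many genes, close profiles arise readily, and the distances are a description.

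Other genes of the contractile apparatus did not follow Acta2 as a group. Of 16 genes on a list, 12 were tested, 0 were called in either direction by edgeR, and 7 had a log2 fold change above 0 and 5 below, with a median of 0.02 where the median over all genes was -0.00131. Lmod1, which encodes a smooth muscle protein that nucleates actin filaments, was the member with an unadjusted p under 0.05. It read 1.37 and 0.766 CPM in knockout libraries against 1.81 and 2.5 CPM in wild type libraries (log2 fold change -1.01, SE 0.44, edgeR adjusted p = 1). Cald1, an actin-binding protein gene of smooth muscle and other cells, read 59.5 and 66.3 CPM in knockout and 51.5 and 55.6 CPM in wild type libraries. Myh11, the myosin heavy chain found in smooth muscle, had 13 and 17 counts in knockout and 7 and 17 counts in wild type libraries, so the groups overlapped.

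Regulators and targets of the pathways that drive these genes gave 0 calls in edgeR. All 17 genes of a list of serum response factor and MRTF genes and their targets were tested. Of these, 9 lay above and 8 below 0, with a median log2 fold change of 0.02. Srf itself, which was named after its values were seen, read 19.5 and 19.5 CPM in knockout against 25.4 and 19.5 CPM in wild type libraries. Vcl, the gene of the adhesion protein vinculin, read 95.3 and 95.8 CPM in knockout and 107 and 99.1 CPM in wild type libraries. Of 20 genes of the YAP and TEAD list, 19 were tested, with 6 above and 13 below 0 and a median of -0.11. F3, which encodes tissue factor, read 11 and 9.3 CPM in knockout against 15.2 and 18.4 CPM in wild type libraries (log2 fold change -0.73, SE 0.22, edgeR adjusted p = 1), while Yap1 read 90.9 and 90.3 CPM in knockout against 101 and 77.6 CPM in wild type libraries. Of 14 genes of the TGF-beta pathway, 11 were tested, with 4 above and 7 below 0, and the receptor gene Tgfbr1 read 94 and 103 CPM in knockout and 97.6 and 93.4 CPM in wild type libraries. Of 5 other PDGF ligand and receptor genes 3 were tested, and Pdgfra, the receptor gene of oligodendrocyte progenitors and fibroblasts, read 29.2 and 32.9 CPM in knockout against 23.6 and 24.2 CPM in wild type libraries. Of the 12 identifiers of 11 cytoplasmic actin, tropomyosin, calponin and myosin genes, all were tested, with 5 above and 7 below 0 and a median of -0.02. Over the lists together, 115 genes were tested and 0 were called by edgeR, DESeq2 or limma-voom, with 3 at an unadjusted p under 0.05 by each tool.

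Markers that define mural, smooth muscle, meningeal and fibroblast cells had from 0 to 17 counts in a library. Of 12 such genes, Myocd and Foxc2 had 0 counts in all 4 libraries, which allows at most 0.155 to 0.165 CPM in knockout and 0.178 to 0.234 CPM in wild type libraries. Kcnj8, a pericyte channel gene, had 1 and 0 counts in knockout and 0 and 0 counts in wild type libraries, and Rgs5, another pericyte gene, had 7 and 7 counts in knockout against 9 and 3 in wild type libraries. Lum, a matrix gene of fibroblasts, had 0 and 0 counts in knockout and 0 and 1 counts in wild type libraries, and the collagen gene Col1a1 had 4 and 0 counts in knockout against 2 and 9 in wild type libraries. Des, the intermediate filament gene of muscle, had 8 and 11 counts in knockout and 9 and 4 counts in wild type libraries. Dcn, another matrix gene of fibroblasts, had 7 and 6 counts in knockout and 3 and 0 counts in wild type libraries. Tbx18 went the other way, with 0 and 0 counts in knockout and 3 and 2 counts in wild type libraries. Abcc9 had 0 and 2 counts in knockout and 4 and 0 counts in wild type libraries. Of the 12, 1 passed the low-count filter, Myh11. Their summed level was 2.53 and 2.63 CPM in knockout libraries against 3.92 and 2.38 CPM in wild type libraries, so the groups overlapped. Wild type replicate 1 was the highest library for 5 of the 10 markers with any count, among them Twist1, a mesenchymal transcription factor gene with 8 and 5 counts in knockout and 15 and 3 counts in wild type libraries. That library was also the highest for Acta2, Tagln, Foxc1, Pdgfrb and Ccn2, and the part of these markers in those values was not tested. It had the lowest total, 12812064 counts, and how often it was the highest over all genes was not examined.

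The full marker lists were dominated by genes that these cultures express at higher levels. Of 16 mural markers, 6 were tested and 0 were called in edgeR. The summed level was 128 and 83.6 CPM in knockout against 124 and 71.6 CPM in wild type libraries, most of it Notch3 and Cspg4, which neural progenitors also express. Of 18 meningeal markers, 6 were tested and 0 called, with 3 above and 3 below 0 in log2 fold change. The 18 summed to 204 and 189 CPM in knockout and 183 and 196 CPM in wild type libraries. Zic1 read 97.6 and 101 CPM in knockout against 84.2 and 97 CPM in wild type libraries. Zic2 went the other way, at 19 and 18.5 CPM in knockout against 22 and 21.3 CPM in wild type libraries. Of 18 fibroblast markers, 6 were tested and 0 called, at 215 and 187 CPM in knockout and 252 and 175 CPM in wild type libraries, with Fbln2 the highest. The members of the 3 lists that missed the filter summed to 2.06 and 1.86 CPM (mural), 1 and 1.04 CPM (meningeal) and 2.01 and 1.97 CPM (fibroblast) in knockout libraries. In wild type libraries they summed to 2.11 and 1.1 CPM (mural), 2.11 and 1.52 CPM (meningeal) and 3.17 and 3.05 CPM (fibroblast). For the meningeal and fibroblast genes below the filter the knockout sums thus lay under the wild type sums, and the mural sums overlapped. The sums over all 18 meningeal and all 18 fibroblast markers overlapped between the genotypes. Among single genes tested, 14.9% had both knockout libraries below both wild type libraries. The meningeal sums rest on 19 and 19 counts in knockout against 28 and 25 in wild type libraries. The fibroblast sums rest on 38 and 36 against 42 and 50 counts. In wild type replicate 1, Igf2 gave 11 of the 28 and Twist1 15 of the 42 counts. Col3a1 gave 16 of the 50 in wild type replicate 2. Igf2 and Col3a1 were named after their values were seen. These sums were not tested. Whether rare cells of these kinds, or neural cells themselves, made the Acta2 and Tagln transcripts was not tested.

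**Figure D4:**
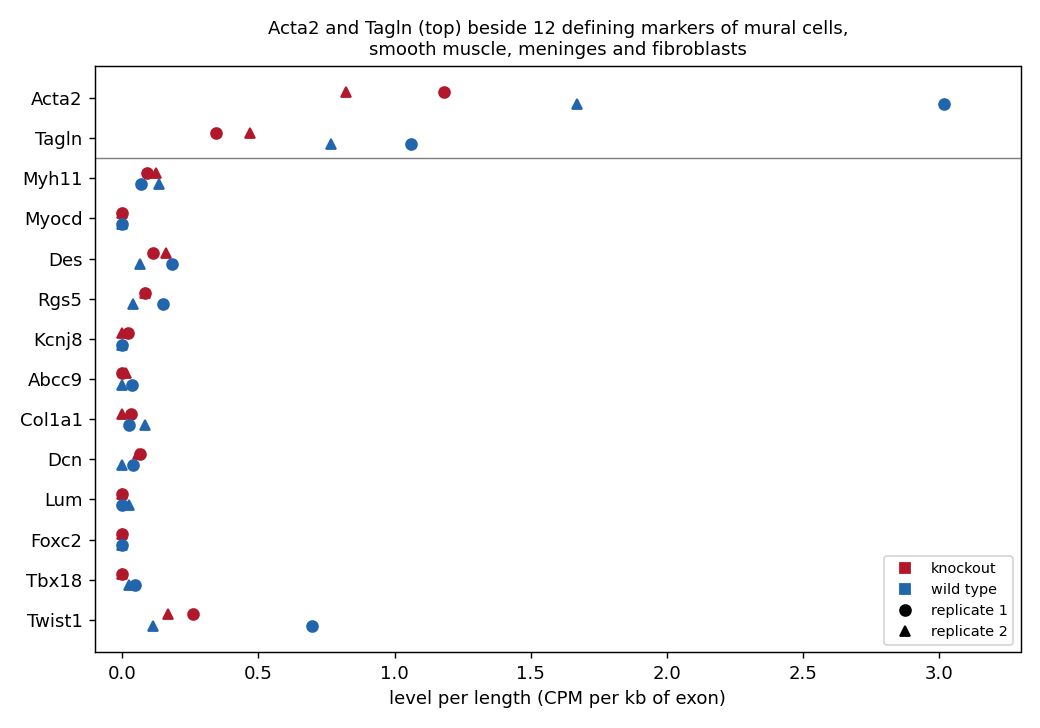
Level per length in CPM per kb of exon for Acta2 and Tagln above the line and the 12 defining markers below it, with red for knockout and blue for wild type libraries. Myocd and Foxc2 lie at 0 in every library, and no marker reached the Acta2 level of any library.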

How the data were processed

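The authors deposited raw counts of reads for each gene, with a separate table for each library. The tools were STAR 2.7.10 and featureCounts on build GRCm39, per the submitters' processing notes. How strand and multiply mapped reads were treated is not stated there. Symbols for 52081 of 55414 identifiers came from a separate reference list of gene names. Gene types, exon lengths and overlaps came from GENCODE M21, on an earlier build, and promoter sequences from RefSeq GRCm38.p6. CPM were scaled with TMM factors. Genes were filtered with filterByExpr (minimum count 10) and tested with edgeR 4.0.16 in R 4.3.3 (glmQLFit with robust=TRUE), with DESeq2 1.42.0 and limma 3.58.1 as alternatives. Each SE was computed as the size of the fold change (log2) divided by the square root of its F statistic. Intervals cover 95%, upper limits for 0 rest on 3 counts over the library total, and the limits and the intervals of ratios cover counting error only.

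The members and lists were chosen with earlier results of these data known. Named genes are Mettl4, the 10 genes, 12 defining markers, and from each of 12 lists examples among the 4 with the highest level and each gene with an unadjusted p under 0.05. Beyond that rule, the list genes Srf, Myh10, Cnn2, Thy1, Igf2 and Col3a1 were named after their values were seen. The chi-square per degree of freedom between replicates was 19.6 in knockout and 12.2 in wild type libraries, so replicates differed by more than sampling noise.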

Additional observations from a re-analysis of the deposited data

How the results depend on the processing

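The 6 tested genes were called under none of the alternatives tried, which were 3 other scalings, 2 other filters, DESeq2, limma-voom, robust=FALSE, protein-coding genes only, each library left out and the replicate number as a block. Acta2, Tagln, Myl9 and Foxc1 kept a negative log2 fold change in 14 of 14. Tpm1 turned to 0.06 without Mettl4 knockout replicate 1 and to 0.10 without wild type replicate 2, within a range from -0.16 to 0.10 with a library left out, and Tpm2 to 0.20 without Mettl4 knockout replicate 1, within a range from -0.61 to 0.20; Tpm2 had no value with at least 1 CPM in 2 libraries. Among all genes the 1 call became 41 without a low-count filter, 6 with DESeq2, and between 1 and 47 with a library left out, in fits where the lone library of a group is assumed to vary like the others; the cause was not tested. With the replicate number as a block the count was 9, though no label marks pairs, and the replicate differences correlated at 0.228 across genes between the genotypes. Among the list genes the count of 0 became between 0 and 1 with a library left out: Thy1, named after its values were seen, was called without wild type replicate 1 (edgeR adjusted p = 0.0049, log2 fold change -1.64). It read 4.43 and 2.46 CPM in knockout and 3.25 and 10.8 CPM in wild type libraries (log2 fold change -1.04, edgeR adjusted p = 1), so the call rests on wild type replicate 2, and the library left out lies between the knockout libraries. With 83 and 51 counts over the 4 libraries for Tagln and Tpm2, depth limits what these genes can show.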

Other observations

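The summed levels of vessel and immune markers lay below those of the full mural, meningeal and fibroblast lists. Of 12 endothelial markers, 7 were tested and 0 called by edgeR, with 0 at an unadjusted p under 0.05 and a summed level of 12.5 and 14.9 CPM in knockout against 15 and 14.9 CPM in wild type libraries. Mmrn2 made up much of it, at 5.91 and 7.99 CPM in knockout and 7.47 and 6.89 CPM in wild type libraries. Of 10 microglial markers, 4 were tested and 0 called, with a summed level of 10.1 and 8.54 CPM in knockout against 9.28 and 9.63 CPM in wild type libraries. Csf1r was the highest of them, at 5.43 and 4.1 CPM in knockout and 5.81 and 4.15 CPM in wild type libraries. Among the neural stem markers Sox9 was the gene with an unadjusted p under 0.05, at 84.2 and 81.3 CPM in knockout libraries against 63.2 and 57.4 CPM in wild type libraries (log2 fold change 0.46, SE 0.14, edgeR adjusted p = 1).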
